A study of Mus musculus with 6 samples.

Results

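The receptors by which a B cell finds its place in the spleen, and by which it stays or leaves, were described in unstimulated and TLR9-activated B cells. The set holds 10 of the 23420 genes in the deposited files: S1pr1, S1pr2, S1pr3, S1pr4, Cd69, Gpr183, Ccr7, Ccr6, Cxcr4 and Cxcr5. It was chosen by gene symbol from measured values of these same samples, so the difference between the groups is given for the 10 genes as a description, with no p-value, and a count of those past the thresholds used for all genes is given beside the share of all genes and is no support. B cells were purified with beads from the spleen of wild-type BALB/c mice aged 7 to 11 weeks and were kept for 4 hours with CpG ODN 1826, a synthetic DNA oligonucleotide that activates TLR9, at 10 µg/ml, or without it, and mRNA was sequenced in 3 samples per group, each from 10 M cells. Replicates 1 and 2 were from females and replicate 3 from a male in both groups. All cells had been through the same purification and culture, including the controls, so no freshly isolated cells stand beside them. The labels name 3 mice in all but do not tie a sample to a mouse.

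Sphingosine 1-phosphate (S1P) is a lipid that is abundant in blood and lymph and scarce inside lymphoid tissue, and cells with S1PR1 on their surface follow it out of the tissue or, in the spleen, toward the marginal zone. CD69 binds S1PR1 and removes it from the cell surface, which holds an activated lymphocyte in place. Chemokine receptors set the place within the tissue: CXCR5 leads B cells into follicles toward CXCL13, CCR7 leads them to the T cell zone toward CCL19 and CCL21, and GPR183 (also called EBI2), a receptor for oxysterols, guides them to the follicle's outer edge and its border with the T cell zone.

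Values are log2 CPM, a gene's read count scaled to a common library total, as deposited after quantile normalization and voom, and sums over genes were between 992384 and 1012396 CPM per sample. The most frequent value, -5.15, was taken as that of a gene without reads, and 10 reads in a library of the implied size, 17.8 M reads, would give -0.76. Low values also vary around this level by replicate number, as in Ccr8 at -5.235, -4.985 and -5.235 log2 CPM in both groups. Values given in reads are therefore approximate. The difference CpG minus unstimulated is called log2FC below and is printed with its standard error (SE). It was fitted with limma over 11233 genes that exceeded the value of 10 reads in at least 3 samples, and all 10 receptor genes were among them, each above that value in all 6 samples. B cell markers were above 10 reads in 6 of 6 genes, with sums from 2263 to 2603 CPM with CpG and 3459 to 4080 CPM without. Of T cell markers 1 of 7 passed that value and 3 were at or under the value of 3 reads in every sample, and of NK cell markers 0 of 4 passed. Of 6 myeloid markers 5 passed, with sums from 7.35 to 15.6 CPM. Erythroid markers were the exception: their summed level ran from 382 to 4902 CPM in CpG samples and from 403 to 3833 CPM in unstimulated ones, and was highest in replicate 2 of both groups.

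Past a false discovery rate (FDR) of 0.05 and an absolute log2FC of 0.5, the thresholds used for every call below, 3 of the 10 genes were higher with CpG, where 28.6% of all tested genes were, and 5 were lower, where 27.6% were. S1pr2 and Cxcr5 were not called. The 3 CpG samples did not overlap with the 3 unstimulated ones in any of the 10 genes, 5 higher and 5 lower, and the same held in either direction for 77.7% of tested genes. Nothing is read from these counts, since the genes were picked with this contrast in view. Their median log2FC was -0.22, beside 0.0033 for all tested genes.

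**Figure D1:**
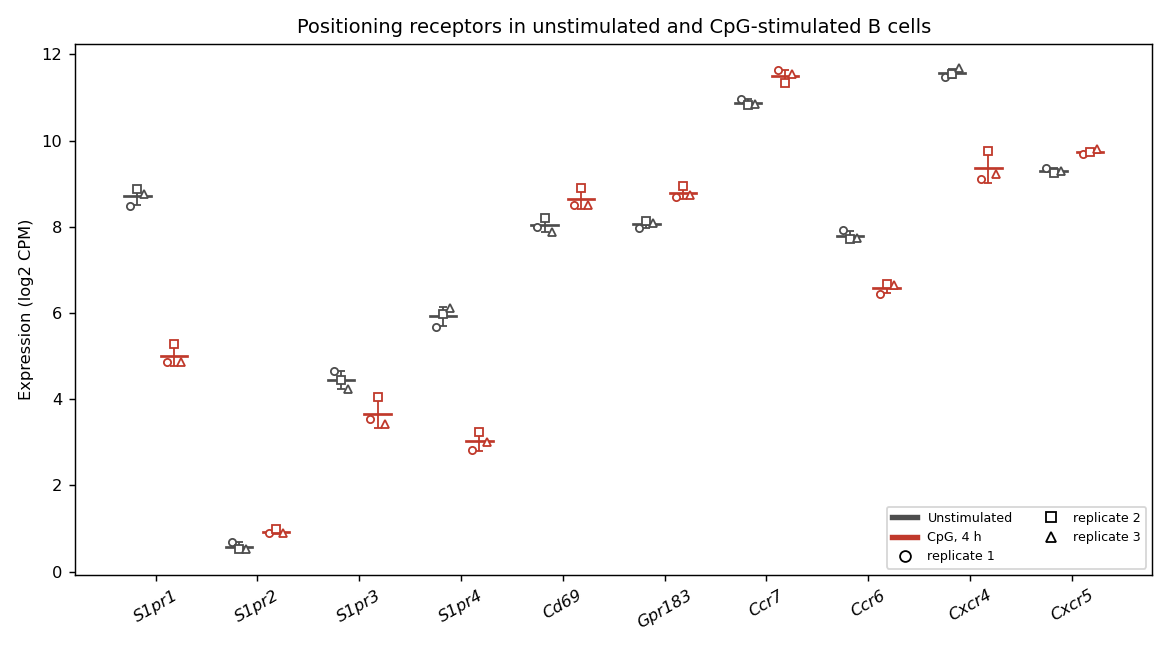
Expression of the 10 receptor genes in log2 CPM (vertical axis) in each of 3 unstimulated (grey) and 3 CpG-stimulated (red) samples, with group means as horizontal bars, SD as error bars and replicate numbers as symbols. The groups are separate in every gene, widest in S1pr1, S1pr4 and Cxcr4, and CpG replicate 2 (square) is the highest of its group in 8 of 10 genes.

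Genomic sequence upstream of these genes is shown to let the receptors be compared where a start was on hand. RefSeq starts on GRCm38.p6 were matched for 6 of the 10 genes, with a pair of starts for Ccr6. Ccr7, Cd69, Cxcr5 and S1pr1 had no entry. The 250 bases before the start are printed for 4 windows, 5′ to 3′ on the gene's strand: Cxcr4 and S1pr4, with the most negative log2FC among the genes matched, the second start of Ccr6, which alone held letters of the NF-kB motif, and Gpr183, the gene with the most positive log2FC. Capitals mark motif matches.
Cxcr4, chr1:128592300-128592549, minus strand: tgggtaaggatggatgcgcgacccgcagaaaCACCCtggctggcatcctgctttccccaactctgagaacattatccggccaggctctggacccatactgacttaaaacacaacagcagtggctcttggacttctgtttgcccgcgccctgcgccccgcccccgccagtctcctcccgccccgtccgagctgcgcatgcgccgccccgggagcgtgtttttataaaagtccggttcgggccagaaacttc
S1pr4, chr10:81500138-81500387, minus strand: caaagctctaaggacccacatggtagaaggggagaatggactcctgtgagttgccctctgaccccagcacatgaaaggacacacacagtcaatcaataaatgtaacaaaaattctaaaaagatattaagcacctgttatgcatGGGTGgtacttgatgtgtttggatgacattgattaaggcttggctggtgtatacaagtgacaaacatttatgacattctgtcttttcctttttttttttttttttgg
Ccr6, second start, chr17:8242276-8242525, plus strand: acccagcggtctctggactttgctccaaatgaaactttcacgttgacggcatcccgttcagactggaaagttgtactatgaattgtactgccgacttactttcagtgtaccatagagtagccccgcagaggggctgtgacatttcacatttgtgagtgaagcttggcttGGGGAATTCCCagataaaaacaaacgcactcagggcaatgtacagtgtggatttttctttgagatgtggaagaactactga
Gpr183, chr14:121965194-121965443, minus strand: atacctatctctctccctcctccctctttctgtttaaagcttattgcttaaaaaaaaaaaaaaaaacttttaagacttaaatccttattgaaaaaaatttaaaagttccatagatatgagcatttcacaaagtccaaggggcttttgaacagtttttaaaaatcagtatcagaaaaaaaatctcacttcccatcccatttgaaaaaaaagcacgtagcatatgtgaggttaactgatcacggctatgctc

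The first and second windows lay just outside the annotated span of their own gene, and the Ccr6 window lay within that of Ccr6. The Gpr183 window lay at the start of Gpr183, a gene that overlaps Ubac2, which is read from the other strand. On either strand 4 motifs were searched, chosen for factors that act below TLR9 or are known to control receptor genes of this kind: NF-kB as GGGNNNNNCC, AP-1 as TGANTCA, KLF as CACCC and FOXO as TGTTTAC. Of 32851 windows of the same length in the RefSeq table, 45.8% held the NF-kB letters, 6.75% AP-1, 52.0% KLF and 3.17% FOXO. In the second Ccr6 window GGGGAATTCCC held a pair of overlapping NF-kB matches that began 81 and 80 bases before the start. KLF letters began 219 bases before the Cxcr4 start, 107 before that of S1pr4, 98 before that of S1pr2, and 228 and 137 before that of S1pr3. No match to the 4 motifs was found in the windows of Gpr183 and of the first Ccr6 start, and none of the 7 windows held AP-1 or FOXO letters. Matches of different motifs did not overlap, and a match is a description of the letters, not a binding site.

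S1pr1 (chr3:115710433-115715072, minus strand, GRCm38) encodes the receptor that draws lymphocytes toward S1P and is coded by a single exon. It measured 4.87, 5.29 and 4.87 log2 CPM in CpG replicates 1 to 3 and 8.49, 8.88 and 8.77 in the unstimulated ones. Every CpG sample was thus more than 3 log2 units below every unstimulated sample, the widest gap among the 10 genes. Mean levels of 5.01 ± 0.24 and 8.72 ± 0.20 (SD, n = 3) gave a 13.1-fold lower value with CpG. Fewer cells carrying an mRNA and less of it per cell cannot be told apart in such bulk samples, here and for the genes that follow. Over the 6 samples, the genes nearest to S1pr1 in pattern were Ssh2, Acss1 and Rdh12, with root mean square distances of 0.14, 0.14 and 0.16 log2 units between values centred by gene.

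S1pr4 (chr10:81497747-81500132, minus strand), a receptor of the same family found mainly on blood cells, gave 2.81, 3.25 and 3.02 log2 CPM with CpG and 5.69, 5.98 and 6.11 without. The groups were far apart here too. Its log2FC of -2.90 ± 0.14 (SE) corresponds to a 7.46-fold lower level.

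S1pr3 (chr13:51408639-51422797, plus strand), which in the B cell lineage is a receptor of marginal zone cells, was at 3.53, 4.04 and 3.43 log2 CPM with CpG and at 4.65, 4.44 and 4.23 without. Here CpG replicate 2 came within 0.19 log2 units of the lowest unstimulated sample. The log2FC was -0.77 ± 0.17 (SE), a 1.71-fold lower level, and the difference within replicate numbers was -1.12, -0.40 and -0.80. It was -0.96 without replicate 2 of both groups. Marginal zone markers moved with it: Cd1d1, Mzb1 and Dtx1 were called lower and Cr2 and Cd9 were not called, and the 5 markers summed to 370 to 452 CPM with CpG and 788 to 845 CPM without. Whether they play a part in the S1pr3 difference was not tested. The 45 exon bases that S1pr3 shares with Gm32834 on the other strand could add reads where strand was not used in counting, and the setting for strand is not given in the sources used here.

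S1pr2 (chr9:20962361-20976781, minus strand) encodes the receptor that couples to G alpha 13 and keeps germinal center B cells confined, against the pull of S1PR1. Low values were found in all samples, 0.89, 0.98 and 0.90 log2 CPM with CpG and 0.70, 0.53 and 0.52 without. CpG samples were higher, yet the step was from 25.0 to 28.3 reads' worth up to 32.4 to 34.5 in a library of the implied size. The log2FC was 0.34 ± 0.21 (SE).

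Added up per kb of exon, the 4 receptors came to 169.6 ± 21.3 CPM per kb (SD, n = 3) in unstimulated cells and to 17.2 ± 3.04 with CpG. S1pr1 was the main one in both states, at 81.8% ± 1.11 of the sum without CpG and 61.9% ± 0.508 with it (SD, n = 3). The share of S1pr3, the S1P receptor with the smaller of the decreases, went from 2.95% ± 0.799 to 16.7% ± 1.19. S1pr4 held 15.1% ± 1.10 and 20.02% ± 1.43, and S1pr2 0.113% ± 0.0232 and 1.40% ± 0.182. No sample's share of any of the 4 overlapped with those of the other group. S1pr3 and S1pr4 were thus lower in level and larger in share with CpG.

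**Figure D2:**
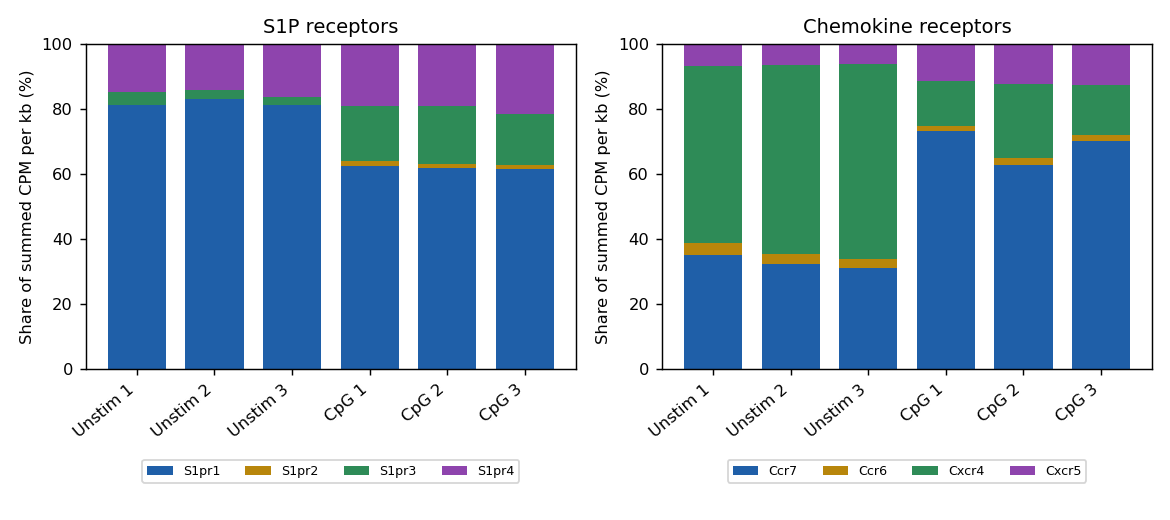
Share of each receptor in the summed CPM per kb of exon (vertical axis, %) for the 4 S1P receptors (left) and the 4 chemokine receptors (right), 1 bar per sample. S1pr1 (blue, left) goes from 81.8% to 61.9% of its set, and Cxcr4 (green, right) gives way to Ccr7 (blue, right) as the leading chemokine receptor.

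Cd69 (chr6:129267325-129275436, minus strand), whose product removes S1PR1 from the surface, was at 8.52, 8.90 and 8.50 log2 CPM with CpG and at 7.996, 8.21 and 7.89 without. All CpG samples were above all unstimulated ones, and the nearest samples of the groups were 0.30 log2 units apart. The log2FC was 0.61 ± 0.12 (SE), a 1.53-fold higher level. Without CpG replicate 2 it was 0.48, and without replicate 2 of both groups 0.57. Per kb of exon, S1pr1 exceeded Cd69 by 1.78 ± 0.19 log2 units (SD, n = 3) in unstimulated samples. In CpG samples S1pr1 was below Cd69 by 2.54 ± 0.02, and the sign was the same in all 3 samples of a group. The length used for Cd69 was 6509 exon bases over 5 transcripts, with 597 coding bases. A shorter form in these cells would give Cd69 a higher level per kb, so the sign without CpG depends on this length. Which transcripts the cells make was not tested.

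Gpr183 (chr14:121952551-121965195, minus strand) had the most positive log2FC of the 10 genes. It measured 8.69, 8.94 and 8.73 log2 CPM with CpG and 7.97, 8.14 and 8.10 without. Each CpG sample was above each unstimulated one by at least 0.55, more than the range within either group. The log2FC of 0.72 ± 0.08 (SE) was a 1.64-fold higher level. Gpr183 lies within Ubac2 on the other strand, but shares 0 exon bases with it, and Ubac2 fell by 1.27 on the log2 scale. Nearest to it in pattern over the 6 samples were Myl12a, Krcc1 and Ssu72, at root mean square distances of 0.025, 0.036 and 0.038 log2 units.

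Ccr7 (chr11:99144196-99155077, minus strand), the receptor for the T cell zone, was at 11.63, 11.35 and 11.54 log2 CPM with CpG and at 10.97, 10.82 and 10.86 without. In CpG samples the lowest value was that of replicate 2, still above the highest unstimulated one. The log2FC was 0.62 ± 0.09 (SE), a 1.54-fold higher level. Dendritic cells also carry Ccr7 and Gpr183, and their 6 markers summed to 90.8 to 106 CPM with CpG and 32.4 to 39.3 CPM without. Of these, Flt3 and Zbtb46 were called higher and made up nearly all of the sum, Ccr9 was called lower, and the defining genes Itgax, Xcr1 and Siglech did not reach the value of 10 reads in 3 samples. The study depleted CD11c+, CD11b+ and Gr-1+ cells in its other B cell RNA-seq experiments, while the labels of these samples say only that beads were used. Whether dendritic cell RNA plays a part in the Ccr7 and Gpr183 values was not tested.

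Cxcr5 (chr9:44511787-44561877, minus strand), the follicle homing receptor, was at 9.70, 9.73 and 9.82 log2 CPM with CpG and at 9.36, 9.25 and 9.30 without. The groups were narrow and separate, with an SD of 0.06 in each (n = 3). The log2FC was 0.45 ± 0.06 (SE), or 1.36-fold, just under the 0.5 of the threshold, with Cd69 at 0.61 the nearest gene above it. An overlap of 110 exon bases with Bcl9l on the other strand goes with it, and Bcl9l rose by 0.85 on the log2 scale.

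Ccr6 (chr17:8236043-8257141, plus strand), the receptor for CCL20, was lower, at 6.44, 6.67 and 6.65 log2 CPM with CpG and 7.92, 7.72 and 7.74 without. More than 1 log2 unit lay between the groups. Its log2FC of -1.20 ± 0.08 (SE) was a 2.30-fold lower level.

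Cxcr4 (chr1:128588199-128592293, minus strand), the receptor for CXCL12, had the highest level per length of the set in unstimulated cells. Values were 9.10, 9.76 and 9.22 log2 CPM with CpG and 11.48, 11.54 and 11.68 without. CpG replicate 2 stood above the other CpG samples and below all unstimulated ones. The log2FC was -2.21 ± 0.15 (SE), 4.63-fold lower, and -2.42 without replicate 2 of both groups.

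Across the 10 genes CpG replicate 2 was the highest of its group in 8, in all but Ccr7 and Cxcr5, and 35.1% of tested genes were highest in that sample. Erythroid RNA was also highest there, as it was in unstimulated replicate 2 among the unstimulated samples. In unstimulated replicate 2, 3 of the 10 genes were the highest of their group, as were 29.3% of tested genes. Whether erythroid RNA plays a part in these values was not tested. Without replicate 2 of both groups, each of the 10 log2FC values kept the sign it had over all samples. For the genes not already given, the values were -3.76 for S1pr1, -2.98 for S1pr4, 0.29 for S1pr2, 0.67 for Gpr183, 0.67 for Ccr7, -1.28 for Ccr6 and 0.43 for Cxcr5.

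Levels of different genes were compared per kb of exon. In unstimulated cells the order was Cxcr4 at 10.71 ± 0.10 log2 CPM per kb (SD, n = 3), Ccr7 at 9.90 ± 0.08, Cxcr5 at 7.56 ± 0.06, S1pr1 at 7.11 ± 0.20, Ccr6 at 6.58 ± 0.11, Gpr183 at 6.54 ± 0.09, Cd69 at 5.33 ± 0.16, S1pr4 at 4.67 ± 0.22, S1pr3 at 2.28 ± 0.21 and S1pr2 at -2.41 ± 0.10. Only Ccr6 and Gpr183 had overlapping samples among neighbors in this order. With CpG it was Ccr7 at 10.52 ± 0.15, Cxcr4 at 8.50 ± 0.35, Cxcr5 at 8.01 ± 0.06, Gpr183 at 7.26 ± 0.14, Cd69 at 5.94 ± 0.23, Ccr6 at 5.37 ± 0.13, S1pr1 at 3.40 ± 0.24, S1pr4 at 1.77 ± 0.22, S1pr3 at 1.51 ± 0.33 and S1pr2 at -2.07 ± 0.05 log2 CPM per kb. Here only S1pr4 and S1pr3 overlapped. S1pr1 went from place 4 to place 7, and Ccr7 and Cxcr4 changed places at the top. The place of Cd69, and so that of genes near it, depends on the length used for Cd69.

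**Figure D3:**
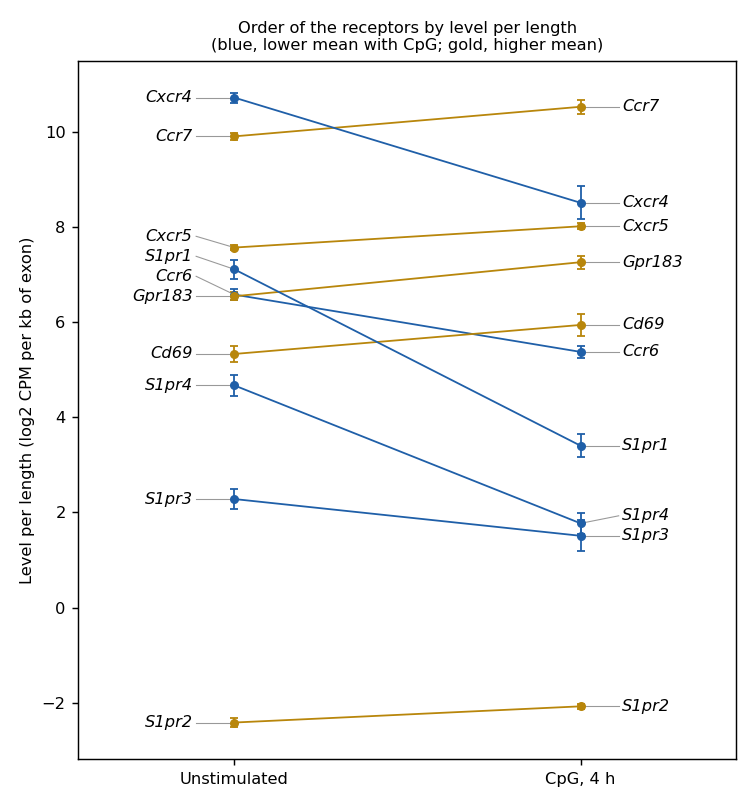
Mean level per length (vertical axis, log2 CPM per kb of exon) of the 10 genes in unstimulated and CpG-stimulated cells, with SD as error bars (n = 3); blue lines are genes with a lower and gold lines genes with a higher mean after CpG. The lines of S1pr1 and Cxcr4 cross those of genes that were below them without CpG, and Ccr7 is the highest with CpG at 10.52.

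The 4 chemokine receptors summed to 2924 ± 103 CPM per kb (SD, n = 3) in unstimulated samples and to 2144 ± 50.3 with CpG. Cxcr4 made up 57.5% ± 2.73 of the sum without CpG and 17.3% ± 4.84 with CpG. Ccr7 made up 32.7% ± 2.14 and 68.7% ± 5.25. The difference Cxcr4 minus Ccr7 was 0.81 ± 0.16 log2 units per kb without CpG and -2.02 ± 0.49 with it, and it was smallest in size in CpG replicate 2, at -1.46. The share of Cxcr5 went from 6.48% ± 0.298 to 12.04% ± 0.626, and Ccr6 went from 3.27% ± 0.293 to 1.94% ± 0.204.

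The rest of the pathway was read in 95 other genes in 10 lists, of which 67 were tested and 28 were too low. Of the 67, 5 were higher, 35 were lower and 27 were not called, and their median log2FC was -0.75, beside 0.0033 over all tested genes. In percent, 7.46% of the tested pathway genes were higher and 52.2% lower, where 28.6% and 27.6% of all tested genes were. The lists were drawn up with results of these data known, and no test was made of them. The 35 include Plpp3 and Gpr34, which passed the filter through unstimulated samples only and so had to differ. With genes required to exceed the value of 10 reads in every sample, 5 were higher and 29 lower. Adjusted p-values (FDR) in the paragraphs that follow are from limma with Benjamini-Hochberg adjustment over the 11233 genes, with n = 3 per group.

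**Figure D4:**
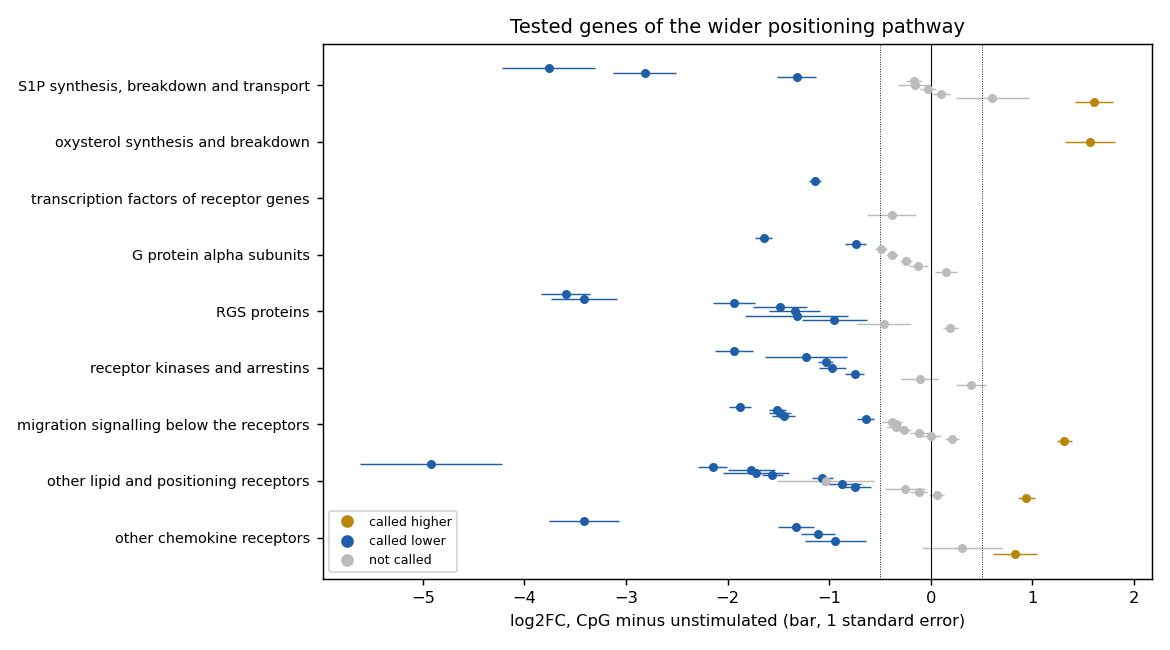
log2FC (horizontal axis, CpG minus unstimulated) of the tested genes of the wider pathway by list, with bars of 1 SE; gold points were called higher, blue lower and grey not called, and dotted lines mark a log2FC of 0.5 in either direction. RGS proteins and receptor kinases and arrestins hold no gene called higher; the leftmost point, Gpr34, and that of Plpp3 at the left of the top row are of genes that entered the test through unstimulated samples alone.

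Of the genes that make, break down or move S1P, 1 was higher, 3 were lower and 5 were not called. Mfsd2b, an S1P exporter of red cells and platelets, rose by a log2FC of 1.61 ± 0.19 (SE; FDR = 2.74e-05). Spns2, the exporter of endothelial cells, had values of 0.77, 1.20 and -0.17 log2 CPM with CpG and 3.22, 3.32 and 3.71 without, and a log2FC of -2.82 ± 0.31 (FDR = 1.69e-05). Plpp3, a lipid phosphatase listed under its older symbol Ppap2b, was at -2.15, -1.79 and -3.40 log2 CPM with CpG and 1.12, 1.25 and 1.58 without; it had entered the test through its unstimulated samples alone, so its values are a description. The phosphatase gene Sgpp2 had a log2FC of -1.32 ± 0.19 (FDR = 1.21e-04). Sgpl1, the S1P lyase that degrades it for good, was not called, at 7.62 ± 0.14 log2 CPM with CpG and 7.79 ± 0.05 without. Platelet markers, which summed to 5.93 to 6.72 CPM with CpG and 6.62 to 9.77 CPM without, held 0 genes called higher and 2 called lower, and none of the erythroid markers was called.

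On the oxysterol side only Hsd3b7, an enzyme that degrades the ligand of GPR183, was tested, and it rose by a log2FC of 1.56 ± 0.25 (SE; FDR = 2.19e-04), from -0.16 ± 0.24 to 1.40 ± 0.18 log2 CPM. Ch25h and Cyp7b1, which make the ligand, were too low to test. Of the ligands Cxcl12, Cxcl13, Ccl19, Ccl20 and Ccl21a none exceeded the value of 10 reads in 3 samples.

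The transcription factors Foxo1 and Klf2 are known to drive S1pr1 and other homing genes in lymphocytes. Foxo1 measured 7.42, 7.53 and 7.48 log2 CPM with CpG and 8.62, 8.65 and 8.56 without, with no overlap and a log2FC of -1.14 ± 0.06 (SE; FDR = 1.05e-07). Klf2 gave 7.51, 8.48 and 7.44 with CpG and 7.95, 8.47 and 8.17 without, so the groups overlapped through CpG replicate 2. Its log2FC was -0.38 ± 0.24 (FDR = 0.173) over all samples and was not called. With the replicate block the log2FC was the same and the FDR was 0.00355, so Klf2 was then uncalled only by the log2FC threshold of 0.5. With single samples left out the log2FC ran from -0.72 (FDR = 3.39e-04), without CpG replicate 2, to -0.20 (FDR = 0.493), without CpG replicate 3. It was -0.24 without CpG replicate 1, -0.25 without unstimulated replicate 2 and -0.58 (FDR = 3.95e-04) without replicate 2 of both groups, and its FDR ran from 3.39e-04 to 0.578 over its alternatives.

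Among the G protein alpha subunits, 2 of 7 tested genes were lower, 0 higher and 5 not called. Gna13, which carries the signal of S1PR2, fell from 9.43 to 9.57 log2 CPM in unstimulated samples to 7.76 to 8.02 with CpG, a log2FC of -1.65 ± 0.08 (SE; FDR = 7.08e-08). RGS proteins, which shorten the signal of such receptors by speeding up GTP hydrolysis, were lower in 7 of 9 genes, with 0 higher and 2 not called. The most negative were Rgs14 (log2FC -3.60 ± 0.24, FDR = 5.01e-07) and Rgs2 (-3.41 ± 0.32, FDR = 5.28e-06), followed by Rgs3 (-1.94 ± 0.21, FDR = 1.56e-05) and Rgs18 (-1.48 ± 0.26, FDR = 4.96e-04). With CpG, Rgs14 was at -0.25, 0.21 and -0.75 log2 CPM, near the value of 10 reads. On the log2(CPM + 1) scale the log2FC of Rgs14 was -2.58, beside -3.38 for Rgs2. Receptor kinases and arrestins, which switch off receptors on the membrane and take them inside, were lower in 5 of 7 genes. Arrb1, an arrestin, had a log2FC of -1.94 ± 0.19 (FDR = 6.07e-06), the kinase Grk6 -1.03 ± 0.07 (FDR = 7.67e-07) and Grk4 -1.23 ± 0.40 (FDR = 0.0189). The call of Grk4 was lost without CpG replicate 1 (FDR = 0.0509), unstimulated replicate 1 (0.0628) or unstimulated replicate 3 (0.0612), and without a filter on low values (0.0959), and over all alternatives its FDR ran from 0.0109 to 0.0959.

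In the signalling that turns receptor engagement into movement, 1 of 13 genes was higher, 5 were lower and 7 were not called. The decreases were largest for Pik3cg, the catalytic subunit of the kinase PI3K gamma (log2FC -1.88 ± 0.11, FDR = 2.07e-07), the exchange factor Dock8 (-1.51 ± 0.09, FDR = 1.73e-07), the actin regulator Coro1a (-1.48 ± 0.11, FDR = 8.33e-07) and Arhgef1, an exchange factor that acts below G alpha 13 (-1.45 ± 0.11, FDR = 1.38e-06). Rap1b, a small GTPase that switches integrins on, was the exception and rose by 1.32 ± 0.08 (SE; FDR = 2.13e-07).

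Of 13 other tested receptors for lipids and positioning cues, 1 was higher, 8 were lower and 4 were not called. Cnr2, the cannabinoid receptor of B cells, had 5.61, 6.33 and 5.89 log2 CPM with CpG and 8.04, 8.06 and 8.17 without, a log2FC of -2.15 ± 0.15 (SE; FDR = 5.55e-07). Gpr55 (-1.77 ± 0.23, FDR = 6.12e-05) and Ptafr, the receptor for platelet-activating factor (-1.72 ± 0.32, FDR = 7.24e-04), were lower as well. Gpr34 had also entered the test through its unstimulated samples alone, and as all its CpG samples were at or under the floor of 3 reads per library, it is described as at least 4.33-fold lower against that floor. Ptger4, a prostaglandin receptor, was the gene called higher, at 7.18 ± 0.08 log2 CPM with CpG and 6.24 ± 0.16 without. P2ry10 and P2ry10b were both called lower, but the genes are alike in sequence and their counts may not be separate. S1pr5, the last S1P receptor, was at the zero level in all 6 samples.

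Only 6 of 19 other chemokine receptor genes could be tested, with 1 higher, 4 lower and 1 not called. Ccr1, a receptor for inflammatory chemokines, was at -0.31, 0.65 and -0.94 log2 CPM with CpG and 3.29, 3.36 and 2.99 without (log2FC -3.41 ± 0.35, FDR = 9.03e-06). Ackr3, the scavenger of CXCL12 that the files list as Cxcr7, had a log2FC of -1.33 ± 0.18 (FDR = 6.48e-05). Ccrl2 was the gene called higher, from 2.22 ± 0.45 to 3.05 ± 0.21 log2 CPM.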

How the data were processed

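The 6 libraries, 3 with CpG and 3 without, were used through the values deposited per sample. The authors trimmed reads with Trim Galore 0.6.5, aligned them to mm10 with STAR 2.6.1a, counted them per gene with featureCounts (Subread 2.0.1) and applied quantile normalization and voom, per the labels and the study's methods. The deposited values are log2 CPM. Quantile normalization removes differences in depth and in total RNA between samples, so neither can be seen, and no counts were used here. The deposited values also carry a shift by replicate number, which leaves log2FC unchanged while both groups hold the same numbers, but enters it where a single sample is left out. The zero level implies 17.8 M reads, and values of 10 and 3 reads were computed from it and cover counting error only.

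Members and gene lists were chosen with earlier results of these data known, so log2FC values of the 10 receptor genes are given with no p-value. The groups were compared by limma (version 3.58.1, R version 4.3.3), with lmFit, a trended eBayes and Benjamini-Hochberg adjustment, over 11233 genes above 10 reads in at least 3 samples. A call needed an FDR under 0.05 and an absolute log2FC over 0.5. The labels do not say that samples of a group came from separate mice, and p-values measure the spread between these samples. Named pathway genes were those called with an absolute log2FC over 1, at most 4 per list, plus Klf2 and Foxo1, and 1 gene named by this rule is not reported here. Rap1b, Ptger4, Ccrl2, Sgpl1, P2ry10, P2ry10b and S1pr5 were named after their values were seen. Levels per length were divided by the exon bases of GENCODE M21 (GRCm38, the build of mm10). Of the 75-base stretches of the receptor genes, 3 of S1pr2 and 4 of S1pr4 were shared with other genes and 0 of the others.

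Deviations from group means correlated at 0.435, 0.224 and 0.300 between samples with the same replicate number and at -0.281 to 0.0279 between others. The shift by number can give this correlation whatever mouse a sample came from. The check therefore cannot decide whether the numbers pair the samples, and the labels give only the same sex by number.

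Alternatives covered the replicate block, filters on low values, log2(CPM + 1), the variance trend, centring on the median gene, a log2FC threshold of 1, transcript length and each sample left out. Leaving out replicate 2 of both groups was chosen after seeing the data.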

Additional observations from a re-analysis of the deposited data

How the results depend on the processing

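No value reversed under the alternatives run. With a log2FC threshold of 1, 1778 genes were higher and 1723 lower, 3 wider pathway genes were higher, and of the 10 receptor genes 0 were higher and 4 lower. With the replicate block 3221 genes were higher and 3109 lower, and it changed no count of calls among the receptor genes or the wider pathway (5 higher, 35 lower). Without a filter on low values 4 of the receptor genes were lower, S1pr3 being lost, and without CpG replicate 2 only 2 were higher, since Cd69 was then under 0.5. Leaving out single samples moved log2FC from -3.85 to -3.62 in S1pr1, -0.96 to -0.65 in S1pr3, 0.31 to 0.40 in S1pr2 and 0.48 to 0.70 in Cd69. On the log2(CPM + 1) scale S1pr2 had a log2FC of 0.21. With the longest transcript as length the order of levels was the same in both groups, though S1pr2, Cd69, Ccr6 and Cxcr5 moved by more than 1 SD. For Cd69 that transcript was still 4968 bases, so a shorter form was not covered. Of the named pathway genes that were tested, Klf2 changed call with samples left out and Grk4 with samples left out or no filter. With a value above 10 reads required in every sample, Ccr1, Gpr34, Ptafr, Plpp3 and Grk4 were no longer tested and 29 wider pathway genes were lower. Quantile normalization hides depth and total RNA, so a level is relative to the other genes of a sample, and 3 samples per group limit the precision of each SD.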

Other observations

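Genes with a symbol of Gpr and a number share the form of the name of Gpr183 and not a ligand or sequence group. The list was set by symbol after the data were seen, and not every gene in it need encode a receptor. Of 92 such genes in the files, 26 were tested, 7 were called higher, where 28.6% of all tested genes were, 12 lower, where 27.6% were, and 7 not called. The 7 higher include Gpr183 itself, and 5 more of the 26 are in the wider pathway lists. Some called genes passed the filter through their higher group alone and so had to differ. Among those called higher these were Gpr30 and Gpr44, at -2.16 ± 0.67 and -1.48 ± 0.41 log2 CPM without CpG. Among those called lower these were Gpr133 and Gpr34, at -2.17 ± 0.54 and -5.15 ± 0.24 with CpG. The median log2FC was -0.14, and no test was made of the list. Gpr65, a receptor that senses protons, was at 7.39 ± 0.06 log2 CPM with CpG and 6.35 ± 0.14 without (SD, n = 3), a log2FC of 1.04. Gpr171 was at 6.91 ± 0.18 and 7.62 ± 0.08 and had a log2FC of -0.71. Gpr146 had a log2FC of -2.35, with 0.58 ± 0.23 and 2.92 ± 0.32 log2 CPM. Gpr18 and Gpr174, both receptors that affect B cell positioning or survival, were not called, with log2FC of -0.12 and 0.06.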
